A study of Drosophila melanogaster with 18 samples.

Results

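The comparison described here sets eye-antennal discs of Drosophila melanogaster that were mutant for both CtBP and scrib against discs mutant for scrib alone. It was defined by genotype, and it used 6 of the 18 RNA-seq libraries of the series, 3 per genotype. CtBP scrib discs had the genotype eyFLP FRT82B Cell lethal over FRT82B with [CtBP87De-10] and [scrib1] on the same arm. Discs mutant for scrib carried [scrib1] alone on that arm. The same CtBP allele in discs with wild-type scrib (3 CtBP libraries), set against discs with the unmutated FRT82B arm (3 control libraries), served as a second comparison that shares no library with the first. Every genotype carried eyFLP, the FLP recombinase under eyeless control, and an FRT82B arm with a cell-lethal mutation, and flies were kept at 25°C. In this system recombination in the eye-antennal primordium makes homozygous mutant clones, while cells homozygous for the lethal arm die, so that the disc comes to be made largely of mutant tissue. How many heterozygous cells remained was not measured, and the sources used here do not describe the gate of the cell sort that preceded RNA extraction.

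The gene scrib encodes a scaffold of the basolateral polarity complex, and its loss in imaginal discs disorganises the epithelium and lets it overgrow, with high Jun kinase (JNK), JAK/STAT and Yorkie activity and poor differentiation. CtBP encodes a co-repressor that binds no DNA itself. It is recruited by short-range repressors such as those of the knirps family, Brinker and Tramtrack, and brings chromatin-modifying enzymes to their targets. In the eye disc the retinal determination genes (eyeless, twin of eyeless, eyes absent, sine oculis, dachshund) specify the field from which photoreceptors then form behind the morphogenetic furrow.

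Between 22294940 and 29006625 counts per library stood behind the 6 libraries compared. Levels are given as CPM, a gene's count relative to the library's total after scaling between libraries by the trimmed mean of M values. A gene was called changed at an adjusted p below 0.05 in edgeR's quasi-likelihood test, with the Benjamini-Hochberg adjustment over all 10834 genes tested, and ± after a log2 fold change is its standard error. Nothing in the sources used here says that the libraries of a genotype came from separate crosses, so the p-values measure the spread between these samples. In every genotype of the 4 used, replicate 1 lay farther from replicates 2 and 3 than these lay from each other. The share of Hsp70 counts was highest in replicate 1, at 0.172% against 0.00542% and 0.00962% in the other CtBP scrib libraries, and at 0.602% against 0.0656% and 0.0883% in the other scrib libraries. The heat shock list had a median log2 fold change of -1.56 and summed to 5232 to 7778 CPM in CtBP scrib discs, against 6649 to 13532 CPM in scrib discs. It had 1 of 15 members called lower (Hsp27, -0.62), and 4 lower once replicate 1 of every genotype was left out. The eye gene eya and the anterior field gene hth were detected in every library, as the labelled tissue has them. The summed level of the blood cell markers was 173 to 187 CPM in CtBP scrib discs, against 214 to 259.9 CPM in scrib discs, with 1 of 11 members lower (NimC1, -0.97), and 4 lower when only these 6 libraries were fitted. The muscle and myoblast markers summed to 576 to 645 CPM in CtBP scrib discs, against 513 to 536 CPM in scrib discs, with 3 of 11 members higher (twi, 0.92, and Mlc2, 0.65, among them; Mlc2 lost its call without replicate 1 of every genotype, adjusted p = 0.111). Of 7 glial markers tested 3 were higher (moody, 0.32, wrapper, 0.48, and Gs2, 0.51) and 1 lower (repo, -0.61). Without CtBP scrib replicate 3 or scrib replicate 2 no glial marker was called higher, without CtBP scrib replicate 1 or scrib replicate 1 or 3 only 1 was, and repo did not pass with only these 6 libraries fitted (adjusted p = 0.0593). The fat body and salivary gland markers had no member called. The salivary gland markers summed to 0.612 to 2.01 CPM in CtBP scrib discs, against 0.187 to 1.69 CPM in scrib discs. The sex markers summed to 470.3 to 615 CPM in CtBP scrib discs, against 751 to 833 CPM in scrib discs, with 2 of 7 members lower (dsx, -0.33, and msl-2, -0.36), 1 without any one library other than scrib replicate 1 and none without that one. Among them the male-specific dosage compensation RNA roX1 had 79.4, 243 and 262 CPM in CtBP scrib discs, against 393, 347 and 457 CPM in scrib discs (adjusted p = 0.0941), with CtBP scrib replicate 1 well below the other libraries. Among all genes tested 9.57% were called higher and 9.14% lower. The part of these marker and heat shock differences in the results that follow was not tested.

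The mutated genes were examined first. CtBP (arm 3R, 13011649 to 13026275, dm6 coordinates) had 361, 332 and 337 CPM in CtBP scrib discs, against 878, 877 and 879 CPM in scrib discs (log2 fold change -1.35 ± 0.04, adjusted p = 6.84e-15). The libraries did not overlap, and CtBP transcript was lower but still present in CtBP scrib discs. The same allele without scrib gave 287 ± 8.05 CPM in CtBP discs and 822 ± 14.8 CPM in control discs (SD, n = 3 each; log2 fold change -1.52 ± 0.04, adjusted p = 7.04e-16). The gene scrib (arm 3R, 26536350 to 26604051) had 484, 491 and 473 CPM in CtBP scrib discs, against 465, 401 and 367 CPM in scrib discs (log2 fold change 0.23 ± 0.07, adjusted p = 0.0291), and this small difference did not pass the test without scrib replicate 3 (adjusted p = 0.152) nor without scrib replicate 2 or any CtBP scrib replicate (0.0535 to 0.0957). The gene kay, which encodes the AP-1 subunit Fos, had 231, 226 and 235 CPM in CtBP scrib discs, against 226, 205 and 213 CPM in scrib discs, and it was not called (adjusted p = 0.663).

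CtBP scrib discs differed from scrib discs in a large part of the transcriptome. In CtBP scrib against scrib discs 2027 genes were called, 18.7% of those tested, with 1037 higher and 990 lower. Changes of at least 2-fold were fewer, 413 genes or 3.81%, and 274 of these were lower and 139 higher. The median log2 fold change over all genes tested was -0.0023. In the same model CtBP against control discs had 1566 genes called, 14.5%, with 758 higher (7%) and 808 lower (7.46%). The interaction, which tests whether the difference made by CtBP loss was the same with and without the scrib mutation, was called for 1136 genes, 10.5%, of which 588 were positive (5.43% of all tested). Of the 2027 genes called in scrib discs, 608 (30% of them and 5.61% of all genes tested) were also called in the same direction in CtBP against control discs. These were 38.8% of the genes called there, and 97 were called in the opposite direction. For 803 of the 2027 (39.6%, or 7.41% of all genes tested) the interaction was called. In 772 of these its sign was that of the difference in scrib discs. That difference selected the genes and also enters the interaction, so this agreement was largely fixed in advance. Of the same 2027 genes, 1322 were not called in CtBP against control discs, but the interaction was called for 556 of these. For the rest no difference between the backgrounds was shown. In the other direction, 861 of the 1566 genes called in CtBP against control discs were not called in scrib discs. The interaction was called for 276 of these, 17.6% of the 1566.

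**Figure D1:**
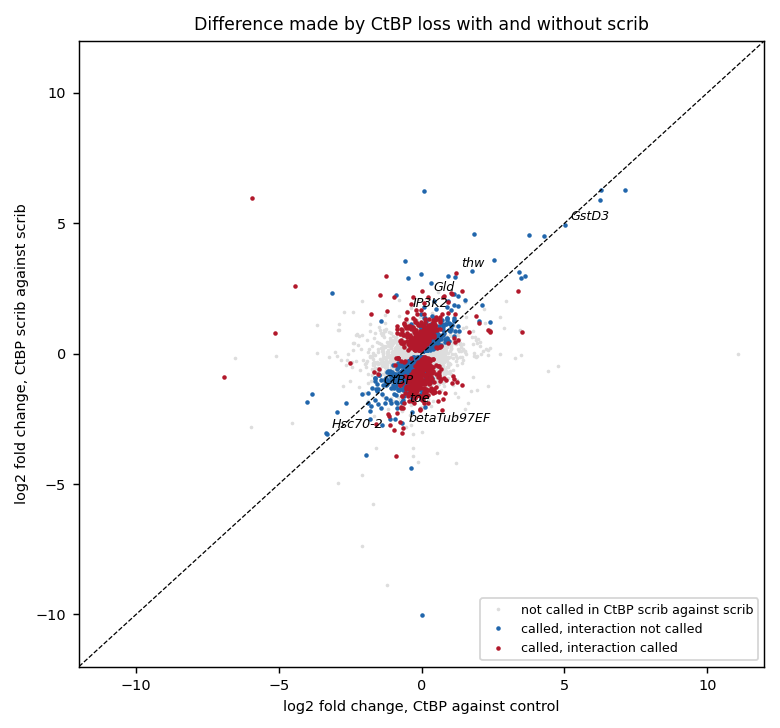
Log2 fold change of every tested gene in CtBP scrib against scrib discs (vertical axis) and in CtBP against control discs (horizontal axis); the dashed line marks equal values. Blue points are genes called in scrib discs without a called interaction and red points the 803 with one. GstD3, CtBP and Hsc70-2 lie near the dashed line, while betaTub97EF, toe, Gld and IP3K2 lie closer to 0 on the horizontal axis than on the vertical one.

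A principal component analysis of the 12 libraries placed scrib and CtBP in separate directions. The first component held 68.7% of the variance and ran from -47.3 to -39.8 in the 6 libraries with wild-type scrib, while scrib discs had scores of 32.8 to 35.5. CtBP scrib discs lay beyond scrib discs on it, at 50.6 to 58.4. The second component held 10.5% of the variance, with CtBP scrib libraries at -15.5 to -12.3 and CtBP libraries at -21.5 to -20.3, against 17.6 to 20.3 in scrib and 13.04 to 20.4 in control libraries. On that axis the genotypes with mutant CtBP fell on one side and those with wild-type CtBP on the other, without overlap.

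Among the genes that rose most were all 3 members of the knirps family, nuclear-receptor-like zinc finger factors of which Knirps is a classical partner of CtBP. The gene kni had 117, 128 and 139 CPM in CtBP scrib discs, against 45.1, 43.8 and 42.1 CPM in scrib discs (log2 fold change 1.55 ± 0.09, adjusted p = 6.82e-10), and its neighbour knrl had 139, 140.0 and 154 CPM in CtBP scrib discs, against 51.5, 48.3 and 49.0 CPM in scrib discs (log2 fold change 1.54 ± 0.06, adjusted p = 6.03e-13). The remaining member, eg (eagle), had 14.02, 15.1 and 14.1 CPM in CtBP scrib discs, against 2.96, 2.71 and 3.12 CPM in scrib discs (log2 fold change 2.29 ± 0.14, adjusted p = 2.45e-10). In all 3 genes every CtBP scrib library stood above every scrib library, as the rule that picked them required. The 3 genes were also higher in CtBP than in control discs, by 0.91, 1.16 and 1.06 on the log2 scale for kni, knrl and eg. For each the difference was larger in scrib discs (interaction adjusted p = 0.00274, 0.0103 and 0.00131).

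Other genes with large increases had various roles. Glucose dehydrogenase (Gld) had 144, 121 and 141 CPM in CtBP scrib discs, against 28.5, 31.5 and 29.6 CPM in scrib discs (log2 fold change 2.18 ± 0.11, adjusted p = 2.45e-10), and levels with wild-type scrib were 14.01 ± 1.23 CPM in CtBP discs and 11.9 ± 2.74 CPM in control discs. The zona pellucida domain gene thw had 157, 174 and 196 CPM in CtBP scrib discs, against 21.0, 19.8 and 20.1 CPM in scrib discs (log2 fold change 3.11 ± 0.09, adjusted p = 3.61e-15). Neither gene's libraries overlapped between CtBP scrib and scrib discs, which was a condition for picking the genes of this paragraph. Tyrosine decarboxylase 1 (Tdc1) had 225, 224 and 223 CPM in CtBP scrib discs, against 63.7, 68.1 and 76.2 CPM in scrib discs (log2 fold change 1.69 ± 0.17, adjusted p = 8.98e-06). The chitinase-like disc growth factor gene Idgf6 had 61.2, 59.6 and 62.9 CPM in CtBP scrib discs, against 15.5, 17.2 and 25.4 CPM in scrib discs (log2 fold change 1.66 ± 0.17, adjusted p = 6.29e-06), and the inositol trisphosphate kinase gene IP3K2 had 104, 118 and 115 CPM in CtBP scrib discs, against 36.3, 35.6 and 40.8 CPM in scrib discs (log2 fold change 1.58 ± 0.21, adjusted p = 9.68e-05). For Idgf6 and IP3K2 the difference without scrib was -0.21 and -0.51 on the log2 scale and was not called, and the interaction was called (adjusted p = 0.000111 and 0.000504). Phk-3, which encodes a pherokine, and the tracheal gene exp (expansion) rose by 1.51 (adjusted p = 2.81e-11) and 1.41 (adjusted p = 4.39e-08). A further 4 genes of this group, GstD3, ea, CG6912 and CG3984, lie near CtBP on 3R and are described with that region below. The gene thw also lies on 3R, 5.771 Mb from CtBP, and rose by 1.19 in CtBP against control discs.

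The largest decreases included eye genes, described next, and single genes of other kinds. The β-tubulin gene betaTub97EF had 2.18, 2.09 and 1.98 CPM in CtBP scrib discs, against 16.9, 13.9 and 13.99 CPM in scrib discs (log2 fold change -2.84 ± 0.12, adjusted p = 4.33e-13), against 18.1 ± 1.48 CPM in CtBP discs and 28.7 ± 2.76 CPM in control discs, and the interaction was called (-2.18 ± 0.14, adjusted p = 2.17e-09). The gene ltl (larval translucida, a modulator of Dpp signalling) had 6.25, 5.18 and 8.14 CPM in CtBP scrib discs, against 32.6, 35.5 and 25.6 CPM in scrib discs (log2 fold change -2.27 ± 0.14, adjusted p = 3.82e-09), and the serpin gene Spn43Aa had 11.5, 12.2 and 15.2 CPM in CtBP scrib discs, against 63.4, 51.6 and 48.7 CPM in scrib discs (log2 fold change -2.08 ± 0.20, adjusted p = 3.77e-06). In each of these 3 genes the CtBP scrib libraries lay below all scrib libraries by a wide gap, and the absence of overlap was required by the rule that picked them. The secreted glycoprotein gene ana (anachronism) fell by 2.33, the villin-like gene qua (quail) by 1.62, the cell adhesion gene Dscam2 by 1.59, the sulfotransferase gene St2 by 1.51 and js by 1.79 on the log2 scale (adjusted p = 1.1e-08, 1.81e-05, 1.62e-05, 3.81e-09 and 5.17e-06). The noncoding RNA gene CR33938 had 76.5, 72.3 and 69.2 CPM in CtBP scrib discs, against 505, 451 and 480.1 CPM in scrib discs (log2 fold change -2.72 ± 0.10, adjusted p = 1.41e-12). This gene lies on 3R, 6.311 Mb from CtBP, and was also lower in CtBP than in control discs (log2 fold change -1.13).

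The retinal determination genes fell together. Of 14 eye specification genes tested, 10 were lower and 1 higher in CtBP scrib than in scrib discs, beside 9.14% lower and 9.57% higher among all genes tested, and the list's median log2 fold change was -1.23. Of the 11 that lie off arm 3R, which carries both mutations, 8 were lower and 1 higher. For genes on 3R the chromosome that carries the CtBP allele and the loss of CtBP cannot be told apart. Of the Pax6 genes, toy (twin of eyeless) had 91.8, 130.3 and 91.3 CPM in CtBP scrib discs, against 314, 283 and 260.4 CPM in scrib discs (log2 fold change -1.45 ± 0.11, adjusted p = 5.24e-08), and ey (eyeless) had 43.3, 59.6 and 40.4 CPM in CtBP scrib discs, against 119, 105 and 98.4 CPM in scrib discs (log2 fold change -1.17 ± 0.10, adjusted p = 4.43e-07). The groups did not overlap for either gene, as held for 34% of all genes tested. The other Pax genes of the list, eyg (eyegone) and toe (twin of eyegone), had 11.8, 15.1 and 13.5 CPM in CtBP scrib discs, against 53.04, 44.8 and 43.1 CPM in scrib discs for eyg and 7.14, 8.16 and 7.01 CPM in CtBP scrib discs, against 36.8, 28.8 and 28.0 CPM in scrib discs for toe, with log2 fold changes of -1.81 and -2.07. The gene eya, which encodes a phosphatase and coactivator, had 53.8, 58.2 and 46.3 CPM in CtBP scrib discs, against 119, 103 and 103 CPM in scrib discs (log2 fold change -1.04 ± 0.07, adjusted p = 5.7e-10). Its DNA-binding partner gene so (sine oculis) had 37.7, 45.2 and 35.4 CPM in CtBP scrib discs, against 84.3, 78.3 and 67.1 CPM in scrib discs (log2 fold change -0.95 ± 0.08, adjusted p = 4.51e-08). The downstream factor gene dac (dachshund) had 52.3, 69.1 and 49.3 CPM in CtBP scrib discs, against 161, 135 and 128 CPM in scrib discs (log2 fold change -1.31 ± 0.11, adjusted p = 8.38e-08). Every scrib library of these genes exceeded every CtBP scrib library. The homeobox gene Optix fell by 1.29, and the neighbouring pair dan and danr (distal antenna and its related gene) fell by 1.48 and 1.32 on the log2 scale (adjusted p = 2.08e-11, 1.06e-11 and 9.74e-13).

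These decreases were not seen to the same degree when CtBP was lost alone. For 12 of the 14 eye specification genes the interaction was called, and in each the log2 fold change was lower in scrib discs than with wild-type scrib, beside 5.06% of all genes tested. Levels of toy were 331 ± 3.88 CPM in CtBP discs and 368 ± 18.9 CPM in control discs, those of dac 356 ± 11.2 CPM in CtBP discs and 342 ± 18.4 CPM in control discs and those of eya 346 ± 15.4 CPM in CtBP discs and 357 ± 6.42 CPM in control discs. None of these 3 differences was called (adjusted p = 0.43, 0.798 and 0.739). In CtBP against control discs toe, eyg and Optix were called lower, by 0.64, 0.43 and 0.26 on the log2 scale. The eyg call there was lost without CtBP replicate 1 or 2, without control replicate 1 or 2, without a filter on low counts and with only the compared groups fitted (adjusted p = 0.0601 to 0.106). The single list member that rose in CtBP scrib discs was tsh (teashirt), a zinc finger gene of the anterior, undifferentiated eye field, with 194, 195 and 211 CPM in CtBP scrib discs, against 146, 132 and 118 CPM in scrib discs (log2 fold change 0.60 ± 0.06, adjusted p = 2.91e-07). It rose more when CtBP was lost alone (256 ± 10.8 CPM in CtBP discs and 118 ± 3.91 CPM in control discs; interaction -0.52 ± 0.09, adjusted p = 0.000292). Its paralog tio (tiptop) had 77.1, 74.5 and 77.6 CPM in CtBP scrib discs, against 81.9, 70.1 and 65.0 CPM in scrib discs and was not called in scrib discs (adjusted p = 0.497), but rose by 0.76 in CtBP against control discs. The genes hth and exd, whose proteins hold the anterior field undifferentiated, were not called (log2 fold change 0.14 and 0.01, adjusted p = 0.179 and 0.923). As these are bulk RNA samples, fewer cells of a type and less RNA per cell cannot be told apart.

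**Figure D2:**
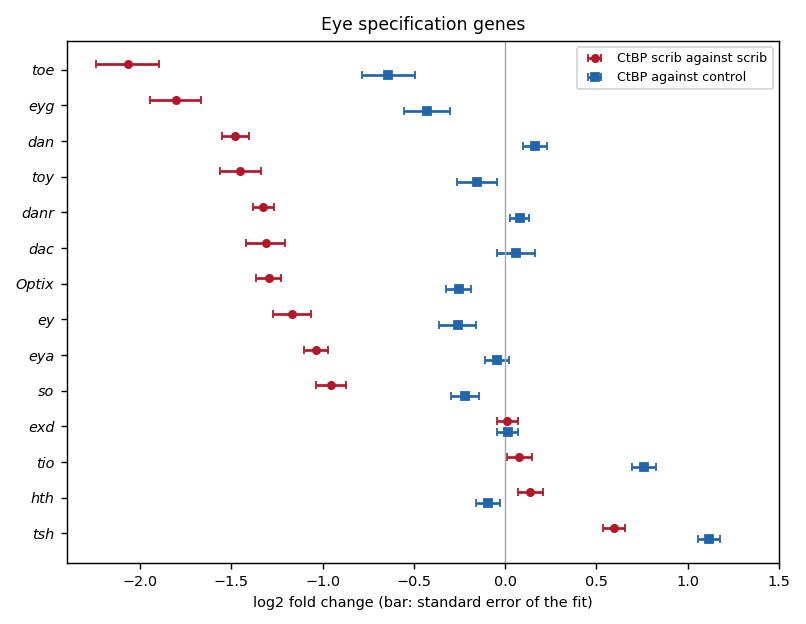
Log2 fold change of the 14 eye specification genes in CtBP scrib against scrib discs (red circles) and in CtBP against control discs (blue squares), with the standard error of the fit as bars. In the first comparison 10 genes lie at -0.95 or below, whereas in the second toe has the lowest value at -0.64.

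Genes of the steps after specification fell as well. Of 11 proneural and R8 photoreceptor genes 10 could be tested. Among these 7 were lower and 1 higher, beside 9.14% lower and 9.57% higher among all genes tested, with a median of -0.45. Off arm 3R 5 of 8 were lower and 1 higher. The proneural gene ato (atonal), which starts each ommatidium, had 10.4, 8.43 and 6.63 CPM in CtBP scrib discs, against 21.8, 19.0 and 19.6 CPM in scrib discs (log2 fold change -1.23 ± 0.10, adjusted p = 5.77e-08). The R8 factor gene sens (senseless) had 2.85, 3.79 and 2.87 CPM in CtBP scrib discs, against 11.1, 9.76 and 8.42 CPM in scrib discs (log2 fold change -1.62 ± 0.11, adjusted p = 6.29e-10), with 23.0 ± 0.682 CPM in CtBP discs and 21.0 ± 0.424 CPM in control discs (interaction -1.75 ± 0.13, adjusted p = 1.75e-08). Neither gene's libraries overlapped between CtBP scrib and scrib discs. The furrow gene ro (rough) and the neural precursor gene ase (asense) fell by 1.02 and 1.37 on the log2 scale from low levels, and sc (scute) fell by 0.49. The nervy gene nvy, which encodes a co-repressor of the ETO family, rose by 0.39 (adjusted p = 0.000852). 

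Photoreceptor and cone cell genes followed, with 9 lower and 1 higher of the 17 tested among 19 and a median of -0.45. Off arm 3R 6 of 12 were lower and 1 higher. Among all genes tested 9.14% were lower and 9.57% higher. The zinc finger gene gl (glass), needed for photoreceptor identity, had 24.6, 27.6 and 18.2 CPM in CtBP scrib discs, against 56.5, 51.1 and 46.3 CPM in scrib discs (log2 fold change -1.12 ± 0.12, adjusted p = 7.31e-06), far under 218 ± 16.2 CPM in CtBP discs and 245 ± 2.27 CPM in control discs. The R8 ligand gene boss (bride of sevenless) had 0.814, 0.657 and 0.753 CPM in CtBP scrib discs, against 3.34, 2.52 and 2.41 CPM in scrib discs (log2 fold change -1.89 ± 0.18, adjusted p = 8.87e-08). The CtBP scrib libraries lay below all scrib libraries in both genes. The receptor gene svp (seven-up), the Runx gene lz (lozenge) and the zinc finger gene klu (klumpfuss) fell by 1.29, 0.85 and 0.88 on the log2 scale. The neuronal gene elav fell by 0.45 (adjusted p = 0.0138), which did not pass without CtBP scrib replicate 2, CtBP scrib replicate 3 or scrib replicate 1 (0.0566, 0.0602 and 0.0684).

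Among EGFR pathway genes, whose signal recruits photoreceptors, 7 of 12 were lower and none higher, with a median of -0.22. Among all genes tested 9.14% were lower and 9.57% higher. The Neuregulin-like ligand gene vn (vein) had 34.6, 36.9 and 33.7 CPM in CtBP scrib discs, against 61.2, 52.5 and 46.5 CPM in scrib discs (log2 fold change -0.61 ± 0.07, adjusted p = 1.43e-06). The ETS effector gene pnt (pointed) had 35.5, 34.2 and 27.2 CPM in CtBP scrib discs, against 57.7, 52.3 and 51.9 CPM in scrib discs (log2 fold change -0.74 ± 0.08, adjusted p = 9.35e-07). CtBP scrib libraries were below scrib libraries throughout. The protease genes ru (roughoid) and rho (rhomboid), which release the ligand, fell by 1.16 and 0.48, and the feedback gene kek1 (kekkon 1) by 0.64 on the log2 scale. Without scrib replicate 1, 1 member was called higher.

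The Enhancer of split and Bearded family genes, targets of Notch and of proneural factors, had 8 members lower and none higher of the 14 tested among 15, with a median of -0.67. Among all genes tested 9.14% were lower. Only 3 of the 14 lie off arm 3R, which carries both mutations, and these 3 were all lower. For the members on 3R the chromosome that carries the CtBP allele and the loss of CtBP cannot be told apart. Tom (twin of m4) had 64.6, 64.6 and 59.0 CPM in CtBP scrib discs, against 117, 110.3 and 107 CPM in scrib discs (log2 fold change -0.83 ± 0.06, adjusted p = 1.18e-09), and Brd (Bearded) had 12.4, 12.7 and 12.2 CPM in CtBP scrib discs, against 22.4, 23.4 and 20.8 CPM in scrib discs (log2 fold change -0.83 ± 0.09, adjusted p = 4.29e-07). Both genes separated the genotypes without overlap. In the Enhancer of split complex the Bearded-type gene E(spl)m4-BFM fell by 0.90, and the repressor genes E(spl)m7-HLH and E(spl)mgamma-HLH by 0.75 and 1.00 on the log2 scale. Of 9 genes of the Notch pathway itself 2 were lower, both on 3R, and 1 higher, beside 9.14% lower and 9.57% higher among all genes tested. The ligand gene Dl (Delta) was not matched to a gene of the data. The ligand gene Ser (Serrate) fell by 0.43 (adjusted p = 0.00334) and the glycosyltransferase gene fng (fringe) rose by 0.39 (adjusted p = 1.8e-05).

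**Figure D3:**
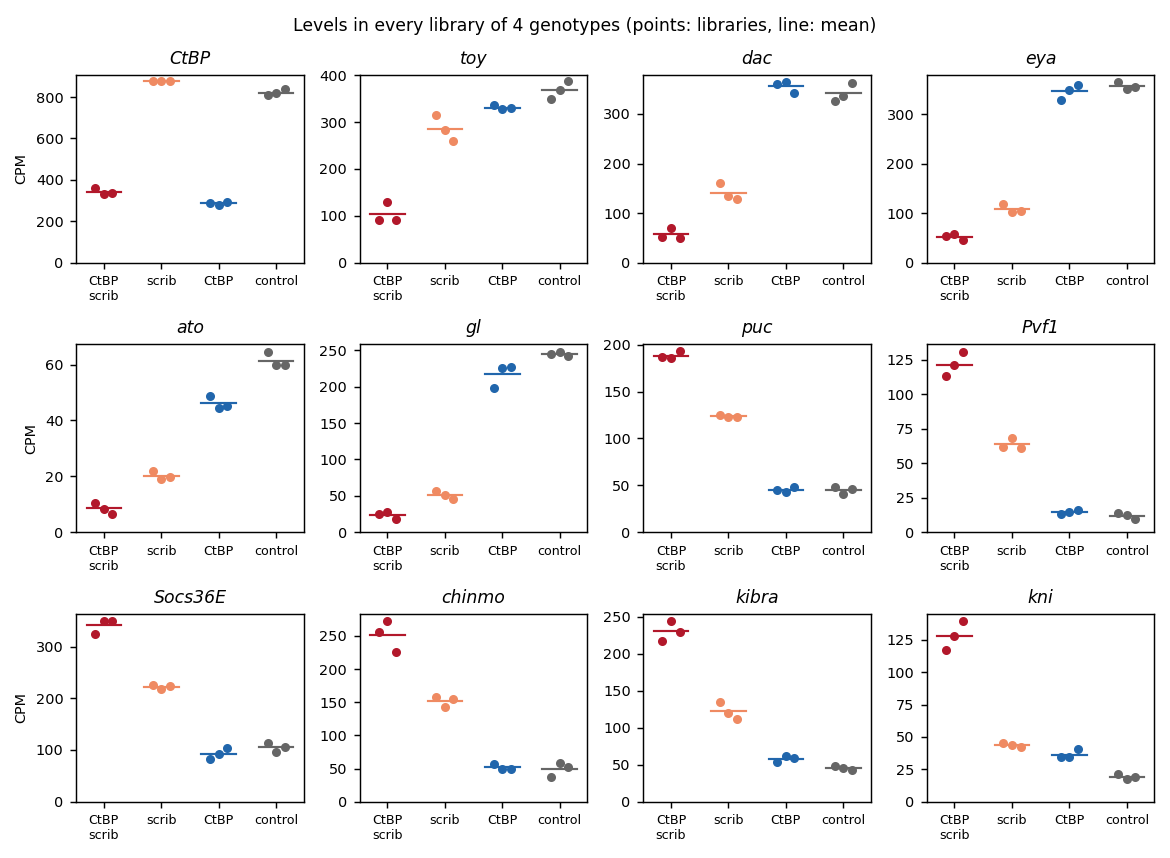
Level in CPM (linear axes starting at 0) of 12 genes in each of the 3 libraries of CtBP scrib, scrib, CtBP and control discs, with a line at the mean. The eye genes toy, dac, eya, ato and gl are lowest in CtBP scrib discs, and puc, Pvf1, Socs36E, chinmo, kibra and kni are highest there, with no overlap between CtBP scrib and scrib libraries.

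Of 16 targets of JNK and AP-1, 9 were higher and 1 lower in CtBP scrib than in scrib discs, beside 9.57% higher and 9.14% lower among all genes tested, and the list's median was 0.49. Off arm 3R 7 of 13 were higher and 1 lower. With any 1 of the 6 libraries left out, 6 or 7 were called higher. The list's summed level was 4916 to 5335 CPM in CtBP scrib discs, against 4168 to 4637 CPM in scrib discs. The phosphatase gene puc (puckered), the pathway's negative feedback and a common reporter of it, had 187, 186 and 193 CPM in CtBP scrib discs, against 125, 123 and 123 CPM in scrib discs (log2 fold change 0.61 ± 0.07, adjusted p = 1.02e-06). Its levels with wild-type scrib were 45.3 ± 2.62 CPM in CtBP discs and 45.0 ± 4.17 CPM in control discs, and the interaction was called (0.60 ± 0.10, adjusted p = 0.000259). Every CtBP scrib library stood above every scrib library. Pvf1, a PDGF- and VEGF-like ligand gene, had 113, 121 and 130.4 CPM in CtBP scrib discs, against 61.5, 68.0 and 61.3 CPM in scrib discs (log2 fold change 0.93 ± 0.09, adjusted p = 7.49e-07), and the bZIP gene Atf3 had 78.6, 73.7 and 76.0 CPM in CtBP scrib discs, against 48.4, 48.0 and 45.6 CPM in scrib discs (log2 fold change 0.68 ± 0.09, adjusted p = 2.38e-05). Neither set of libraries overlapped. The death gene rpr (reaper) had 26.3, 21.6 and 21.0 CPM in CtBP scrib discs, against 14.4, 13.2 and 14.5 CPM in scrib discs (log2 fold change 0.71 ± 0.09, adjusted p = 6.68e-06), and it rose by 0.72 in CtBP against control discs as well.

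Matrix metalloprotease 1 (Mmp1), which degrades basement membrane, had 729, 805 and 859 CPM in CtBP scrib discs, against 551, 523 and 509 CPM in scrib discs (log2 fold change 0.60 ± 0.18, adjusted p = 0.0379). With wild-type scrib it had 34.9, 42.2 and 44.6 CPM in CtBP discs, against 74.9, 46.5 and 41.6 CPM in control discs. Its libraries did not overlap, but the call was lost without any single one of the 6 libraries (adjusted p = 0.0507 to 0.122). The filamin gene cher (cheerio) rose by 0.54 on the log2 scale (adjusted p = 0.000272). The member that fell was scaf (scarface), a serine protease homolog, with 238, 276 and 289 CPM in CtBP scrib discs, against 420.2, 407 and 365 CPM in scrib discs (log2 fold change -0.57 ± 0.07, adjusted p = 4.07e-06). It fell by 0.54 in CtBP against control discs. The list's 9 higher members include others beyond those given above, and some members were not called. The relaxin-like growth-arrest gene Ilp8 had 69.3, 80.9 and 69.9 CPM in CtBP scrib discs, against 61.6, 69.7 and 83.0 CPM in scrib discs, and the ETS gene Ets21C had 38.4, 36.9 and 36.5 CPM in CtBP scrib discs, against 38.5, 30.8 and 37.1 CPM in scrib discs. Both groups overlapped, and neither gene was called (adjusted p = 0.932 for both). Of 14 JNK pathway components 2 (14.3%) were called, no larger a share than the 18.7% of all genes, both higher: the TNF receptor gene wgn (wengen), at 0.65, and the kinase gene msn (misshapen), at 0.24 on the log2 scale.

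Of 11 JAK/STAT genes 6 were higher and none lower, beside 9.57% higher among all genes, with a median of 0.41. Without CtBP scrib replicate 2, CtBP scrib replicate 3, scrib replicate 2 or scrib replicate 3, 3 members were called higher. The feedback inhibitor gene Socs36E, a reporter of the pathway, had 325, 349 and 350.4 CPM in CtBP scrib discs, against 226, 217 and 224 CPM in scrib discs (log2 fold change 0.62 ± 0.07, adjusted p = 4.56e-06), with 92.8 ± 10.5 CPM in CtBP discs and 106 ± 8.41 CPM in control discs (interaction 0.81 ± 0.11, adjusted p = 3.65e-05). The transcription factor gene chinmo, a STAT target that keeps cells in an immature state, had 256, 272 and 226 CPM in CtBP scrib discs, against 157, 143 and 155 CPM in scrib discs (log2 fold change 0.73 ± 0.13, adjusted p = 0.000632). Libraries of both genes separated the genotypes. The repressor gene ken (ken and barbie) rose by 0.42 (adjusted p = 0.000937).

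Of the ligands of the pathway, upd1 and upd3 had low levels with wild-type scrib, 2.33 ± 0.144 CPM in CtBP discs and 3.90 ± 1.47 CPM in control discs for upd1 and 0.300 ± 0.0953 CPM in CtBP discs and 0.808 ± 0.752 CPM in control discs for upd3 (SD, n = 3 each). The cytokine gene upd3 had 25.6, 32.3 and 30.3 CPM in CtBP scrib discs, against 13.6, 11.7 and 11.7 CPM in scrib discs (log2 fold change 1.25 ± 0.34, adjusted p = 0.0214), and upd1 had 49.6, 50.9 and 52.3 CPM in CtBP scrib discs, against 40.9, 37.7 and 36.7 CPM in scrib discs (log2 fold change 0.41 ± 0.13, adjusted p = 0.0328). Both separated the genotypes, yet upd1 lost its call without any single library (adjusted p = 0.0516 to 0.105), and upd3 lost it without any library but CtBP scrib replicate 1 (0.0516 to 0.093) and in DESeq2 (0.333). The gene upd2 had 39.3, 41.3 and 42.1 CPM in CtBP scrib discs, against 21.5, 16.7 and 18.5 CPM in scrib discs and was not called (adjusted p = 0.203), although it was with the 6 compared libraries fitted alone (1.95e-06). With wild-type scrib upd2 had 0.102, 0.158 and 0.234 CPM in CtBP discs and 5.74, 0.216 and 0.317 CPM in control discs.

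Yorkie targets did not move in a common direction. Of 13, 3 were higher and 5 lower, beside 9.57% and 9.14% of all genes tested, with a median of 0.07. These counts depended on single libraries, with 5 higher and 2 lower without scrib replicate 1 and 3 lower without CtBP scrib replicate 3. The upstream Hippo regulator gene kibra, itself a target, had 217, 244 and 229.9 CPM in CtBP scrib discs, against 135, 119.9 and 112 CPM in scrib discs (log2 fold change 0.91 ± 0.07, adjusted p = 7.33e-09), and the kinase gene fj (four-jointed) had 705, 665 and 708 CPM in CtBP scrib discs, against 529, 520.3 and 495 CPM in scrib discs (log2 fold change 0.43 ± 0.05, adjusted p = 8.77e-07). Both stood higher in every CtBP scrib library. The cyclin gene CycE had 77.4, 74.8 and 70.4 CPM in CtBP scrib discs, against 99.4, 93.3 and 86.9 CPM in scrib discs (log2 fold change -0.33 ± 0.05, adjusted p = 9.81e-05), lower in every CtBP scrib library. The caspase inhibitor gene Diap1 had a log2 fold change of -0.16 (adjusted p = 0.0393), which did not pass without CtBP scrib replicate 1, 2 or 3 or without scrib replicate 1 (adjusted p = 0.0728 to 0.11). Of 13 Hippo pathway components 2 (15.4%) were called, both higher, no larger a share than the 18.7% of all genes. Among them Tgi, a co-repressor that binds Scalloped, rose by 0.42 (adjusted p = 4.13e-05).

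**Figure D4:**
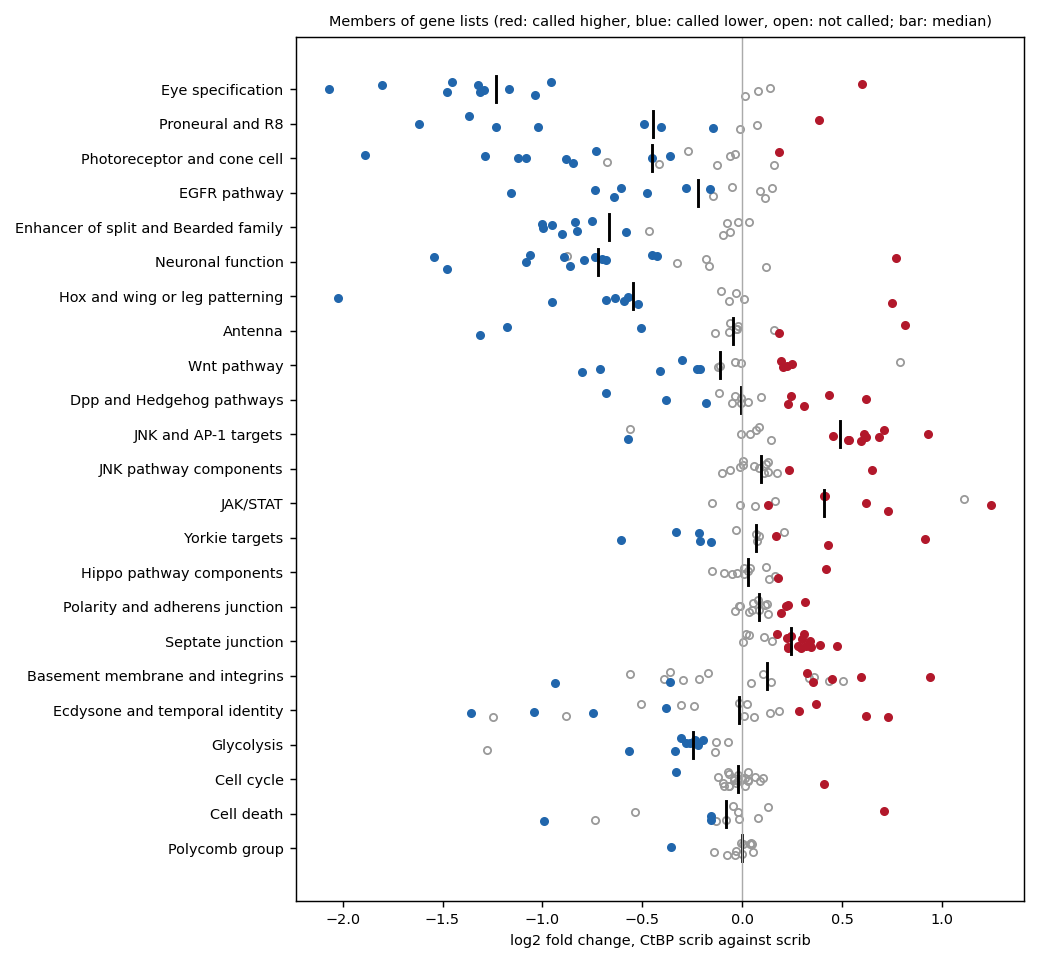
Log2 fold change in CtBP scrib against scrib discs of every tested member of 23 gene lists (one point per gene; vertical position within a row is spread for legibility), with red for genes called higher, blue for genes called lower, open grey for genes not called and a black bar at the list's median. The eye specification list has its median at -1.23 and the JNK and AP-1 targets theirs at 0.49, while Polycomb group and cell cycle genes lie around 0.

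Of the repressors that recruit CtBP, brk (brinker), a repressor of Dpp targets, had 143, 136 and 131 CPM in CtBP scrib discs, against 93.8, 85.0 and 88.8 CPM in scrib discs (log2 fold change 0.62 ± 0.05, adjusted p = 2.91e-08), and every CtBP scrib library was higher. The ttk gene (tramtrack), whose product blocks neuronal fate, fell by 0.35 (adjusted p = 0.00392). The RNA-binding protein genes Imp and Syp mark early and late developmental states in the nervous system. Imp had 766, 759 and 721 CPM in CtBP scrib discs, against 617, 533 and 589 CPM in scrib discs (log2 fold change 0.37 ± 0.07, adjusted p = 0.000907), and Syp had 1234, 1089 and 1172 CPM in CtBP scrib discs, against 1701, 1462 and 1392 CPM in scrib discs (log2 fold change -0.38 ± 0.08, adjusted p = 0.00181). Imp was thus higher and Syp lower in every CtBP scrib library.

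Of 17 Hox, wing and leg patterning genes 12 could be tested. Among these 7 were lower and 1 higher, beside 9.14% lower and 9.57% higher among all genes tested, with a median of -0.55. The 3 Iroquois genes, which mark the dorsal eye, were all lower: mirr (mirror) had 51.7, 51.7 and 50.3 CPM in CtBP scrib discs, against 119, 90.5 and 88.0 CPM in scrib discs (log2 fold change -0.95 ± 0.08, adjusted p = 3.74e-08), and ara (araucan) and caup (caupolican) fell by 0.68 and 0.57 on the log2 scale. They were also lower in CtBP than in control discs (log2 fold change -0.47, -0.62 and -0.59 for mirr, ara and caup). The Hox gene lab (labial) rose, with 32.0, 34.6 and 35.2 CPM in CtBP scrib discs, against 20.1, 20.5 and 19.8 CPM in scrib discs (log2 fold change 0.75 ± 0.08, adjusted p = 1.02e-06). In the antennal list of 12 genes 2 were higher and 3 lower, beside 9.57% higher and 9.14% lower among all genes tested. Among the higher ones the LIM-homeobox gene Awh (Arrowhead) rose by 0.81 on the log2 scale. The genes al (aristaless) and Lim1, a LIM-homeobox gene, fell by 1.17 and 0.51, together with dac, which the eye specification list also holds.

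Of the signalling ligands, dpp had 84.4, 84.7 and 80.3 CPM in CtBP scrib discs, against 120.4, 105 and 99.9 CPM in scrib discs (log2 fold change -0.38 ± 0.06, adjusted p = 4.77e-05), lower in every CtBP scrib library, and the Hedgehog receptor and target gene ptc (patched) rose by 0.43 (adjusted p = 1.88e-05). Of 15 Dpp and Hedgehog pathway genes 5 were higher and 3 lower, beside 9.57% higher and 9.14% lower among all genes tested. In the Wnt list of 15 genes 4 were higher and 6 lower, beside the same shares of all genes. The higher count was 2 when CtBP scrib replicate 2 or 3 or scrib replicate 2 or 3 was left out. The ligand genes Wnt2 and Wnt4 fell by 0.71 and 0.80 on the log2 scale, and both also fell in CtBP against control discs (-0.49 and -0.78).

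Genes of the septate junction, the occluding junction below the adherens junction, rose by small amounts in most members. Of 19, 14 were higher and none lower, beside 9.57% higher and 9.14% lower among all genes tested, with a median of 0.24. The FERM-domain gene cora (coracle) had 809.6, 871 and 823 CPM in CtBP scrib discs, against 657, 586 and 560.1 CPM in scrib discs (log2 fold change 0.47 ± 0.06, adjusted p = 1.27e-05), and the claudin gene sinu (sinuous) had 292, 309 and 315 CPM in CtBP scrib discs, against 229, 239 and 231 CPM in scrib discs (log2 fold change 0.39 ± 0.05, adjusted p = 2.15e-06). The claudin gene pck (pickel) and the neurexin gene Nrx-IV rose by 0.35 and 0.31 on the log2 scale. All CtBP scrib libraries of these 4 genes stood above all scrib libraries. The interaction was called for 8 of the 19, each with the larger value in scrib discs, beside 5.43% called positive among all genes tested. Of 15 polarity and adherens junction genes 4 were higher, among them l(2)gl, a partner of scrib in the basolateral complex, at 0.31 (adjusted p = 0.00117), beside 9.57% higher among all genes. Without scrib replicate 1 the count was 7, and without scrib replicate 2 it was 2.

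In the basement membrane and integrin list of 20 genes the members with the smallest p-values pointed both ways. The integrin α gene if (inflated) had 147, 163 and 155 CPM in CtBP scrib discs, against 88.2, 77.9 and 75.8 CPM in scrib discs (log2 fold change 0.94 ± 0.07, adjusted p = 6.44e-09), and the metalloprotease gene Mmp2 had 123, 144 and 123 CPM in CtBP scrib discs, against 275, 243 and 229 CPM in scrib discs (log2 fold change -0.94 ± 0.07, adjusted p = 4.86e-09). The first was higher and the second lower in every CtBP scrib library. The integrin α gene mew (multiple edematous wings) rose by 0.32 (adjusted p = 0.000287). The list had 5 members higher and 2 lower, beside 9.57% higher and 9.14% lower among all genes tested. Higher members numbered 3 without CtBP scrib replicate 1, CtBP scrib replicate 3 or scrib replicate 2, and lower members 4 without scrib replicate 3.

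Of 18 neuronal genes 12 fell and 1 rose, beside 9.14% lower and 9.57% higher among all genes tested, with a median of -0.72. The microtubule-binding gene futsch had 38.3, 33.8 and 27.8 CPM in CtBP scrib discs, against 64.3, 52.0 and 50.5 CPM in scrib discs (log2 fold change -0.74 ± 0.13, adjusted p = 0.000731), against 269.6 ± 25.1 CPM in CtBP discs and 336 ± 24.2 CPM in control discs. The active zone gene brp (bruchpilot) fell by 1.06 and the synaptic fusion gene Snap25 by 1.08 on the log2 scale, from low levels. The member that rose was Cadps, a gene of dense-core vesicle release, with 22.1, 16.4 and 19.8 CPM in CtBP scrib discs, against 10.9, 11.9 and 11.4 CPM in scrib discs (log2 fold change 0.77 ± 0.11, adjusted p = 2.41e-05). It fell by 0.85 when CtBP was lost alone, so the directions were opposite and the interaction was called (1.62 ± 0.14, adjusted p = 2.93e-07). Of 10 neuroblast and brain markers 5 were lower and 2 higher, beside the same shares of all genes. Among the lower ones mira (miranda) fell by 1.47 on the log2 scale (adjusted p = 3.05e-06). Those that rose were insc (inscuteable), at 0.45 (adjusted p = 0.00171), and dpn (deadpan), at 0.25 (adjusted p = 0.0103), and dpn did not pass without CtBP scrib replicate 1 or scrib replicate 2 (0.054 and 0.0518).

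Glycolytic genes fell modestly, with 8 of 12 lower and none higher and a median of -0.25, beside 9.14% lower among all genes tested. Hexokinase A (Hex-A) had 90.7, 90.3 and 78.3 CPM in CtBP scrib discs, against 132, 127 and 126 CPM in scrib discs (log2 fold change -0.57 ± 0.06, adjusted p = 2.49e-07), and Phosphofructokinase (Pfk) and Aldolase 1 (Ald1) fell by 0.33 and 0.28 on the log2 scale. Hex-A levels did not overlap between CtBP scrib and scrib discs. Among 35 glutathione S-transferase genes 27 could be tested, of which 4 were higher and 6 lower, beside 9.57% and 9.14% of all genes tested. GstT3 rose by 1.32 and GstZ2 fell by 1.28 on the log2 scale (adjusted p = 4.13e-06 and 2.06e-08). Of 24 cell cycle genes only the mitotic phosphatase gene stg (string), which rose by 0.41 (adjusted p = 1.68e-05), and CycE passed the test. That was 8.33% of the list, below the 18.7% of all genes tested.

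Genes whose response to CtBP loss differed most between the backgrounds included some with fold changes of opposite sign. Dscam3, a cell adhesion gene, had 0.987 ± 0.340 CPM in CtBP scrib discs and 2.77 ± 0.0870 CPM in scrib discs, against 24.4 ± 6.07 CPM in CtBP discs and 15.9 ± 1.10 CPM in control discs (SD, n = 3 each). It was thus lower with CtBP loss in scrib discs (-1.45) and higher without scrib (0.62), with an interaction of -2.07 ± 0.31, adjusted p = 0.000233. The gene cysu showed the same pattern (-0.96 in scrib discs and 0.67 without scrib, interaction -1.63 ± 0.22, adjusted p = 0.000108), although its difference in scrib discs did not pass without replicate 1 of every genotype (adjusted p = 0.0622). With only the compared groups fitted, the higher level without scrib was not called for Dscam3 or cysu (adjusted p = 0.103 and 0.0545). On the higher side l(2)k05911 had 97.8 ± 14.4 CPM in CtBP scrib discs and 44.3 ± 5.55 CPM in scrib discs, against 15.3 ± 1.10 CPM in CtBP discs and 23.6 ± 5.69 CPM in control discs (interaction 1.77 ± 0.27, adjusted p = 0.000675). The cuticle gene Cpr12A rose by 1.37 in scrib discs, with an interaction of 1.69 ± 0.40, adjusted p = 0.0123.

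Other genes were called in the same direction in both backgrounds. For the 5 given here the interaction was not called (adjusted p = 0.0696 to 0.834), which does not show that the differences were equal. The chitin deacetylase gene serp (serpentine) had 924, 959 and 942 CPM in CtBP scrib discs, against 406, 400.4 and 379.8 CPM in scrib discs (log2 fold change 1.25 ± 0.08, adjusted p = 2.72e-10), and 594 ± 56.4 CPM in CtBP discs and 271 ± 7.83 CPM in control discs (log2 fold change 1.13 ± 0.08, adjusted p = 1.33e-09). Each genotype with mutant CtBP was thus above its counterpart by more than the spread of the libraries. The dual oxidase maturation gene mol (moladietz) rose by 1.29 in scrib discs and 1.14 without scrib. The guanylyl cyclase gene Gyc32E fell by 2.09 in scrib discs and 1.44 without scrib, and its interaction was called without scrib replicate 3 (-0.80, adjusted p = 0.00647). On the log2 scale the ecdysone-response gene Eip93F fell by 1.36 and 1.61, and the peptidoglycan receptor gene PGRP-LC by 1.31 and 1.74, in scrib discs and without scrib in turn.

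Many of the strongest changes shared by both comparisons lay near CtBP itself. Changes of at least 2-fold, called in the same direction in both, numbered 72 genes (0.665% of those tested), 29 higher and 43 lower. Of these, 34 (47.2%) were on arm 3R, which holds 24.1% of the genes tested. Within 2.5 Mb of CtBP, a distance chosen after the values were seen, lay 23 of the 72 (31.9%, CtBP included), while the window holds 485 tested genes or 4.48%. The glutathione S-transferase gene GstD3, 0.638 Mb from CtBP, had 74.2, 71.8 and 72.6 CPM in CtBP scrib discs, against 2.44, 1.67 and 3.08 CPM in scrib discs (log2 fold change 4.92 ± 0.21, adjusted p = 1.69e-10). It belongs to a tandem cluster of close paralogs, so its reads may be shared among them. The serine protease gene ea (easter), 2.302 Mb away, had 17.5, 18.5 and 16.7 CPM in CtBP scrib discs, against 0.450, 0.620 and 1.17 CPM in scrib discs (log2 fold change 4.55 ± 0.25, adjusted p = 2.45e-10). Both genes also rose in CtBP against control discs, by 5.01 and 3.75 on the log2 scale.

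The neighbours CG6912 and CG3984, about 2.11 Mb from CtBP, had the largest increases of all genes that reached 10 CPM, 6.28 and 6.28 on the log2 scale. CG6912 had 18.5, 18.9 and 19.8 CPM in CtBP scrib discs, against 0.225, 0.194 and 0.301 CPM in scrib discs, and CG3984 had 21.2, 19.3 and 19.5 CPM in CtBP scrib discs, against 0.150, 0.426 and 0.188 CPM in scrib discs. CG3984 lies within an antisense RNA gene, and without a stated strand setting the reads of this pair cannot be told apart. The antisense gene reaches CG6912 only at its end. On the lower side Hsc70-2, a heat shock cognate gene that starts 0.018 Mb from CtBP, had 10.1, 8.89 and 7.62 CPM in CtBP scrib discs, against 75.0, 74.6 and 72.1 CPM in scrib discs (log2 fold change -3.05 ± 0.11, adjusted p = 6.32e-13). Its neighbour CG31157 fell by 3.07, and the ABC transporter gene Mrp4, 1.436 Mb from CtBP, by 1.88 on the log2 scale. All these genes kept CtBP scrib and scrib libraries apart, as the rule that picked them required. In CtBP scrib against scrib discs 18.5% of genes on 3R and 18.8% of genes elsewhere were called, and in CtBP against control discs 19.8% and 12.8%. The chromosome that carries the CtBP allele and the loss of CtBP cannot be told apart in these genotypes.

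**Figure D5:**
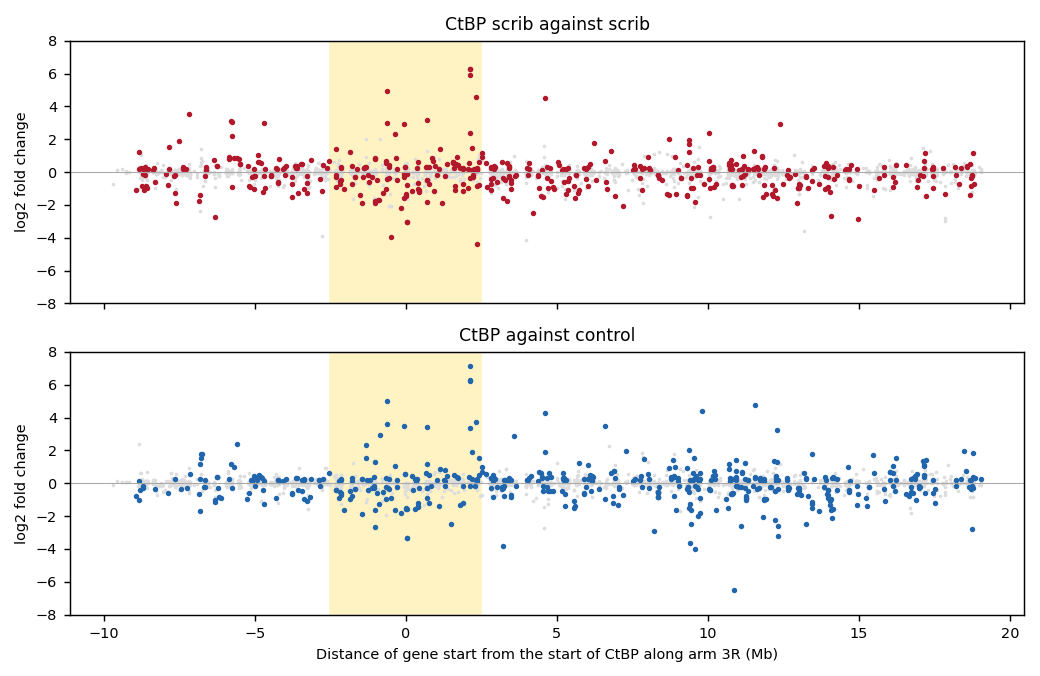
Log2 fold change of every tested gene on arm 3R against the distance of its start from that of CtBP in Mb, for CtBP scrib against scrib discs (upper panel) and CtBP against control discs (lower panel). Coloured points are called genes, grey points are not called and the shaded band marks 2.5 Mb on either side, which holds 23 of the 72 genes changed at least 2-fold in both comparisons.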

How the data were processed

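The series holds 18 RNA-seq libraries of eye-antennal discs (6 genotypes, 3 libraries per genotype). Comparisons used 12 libraries of 4 genotypes. The fos and scrib fos libraries entered only the filter on low counts, the scaling between libraries and the estimate of the spread. Per the labels' protocols, RNA was taken from pelleted cells with Trizol, material sorted on different days was pooled into 3 samples for each genotype, and TruSeq RNA libraries were made. The submitters' processing notes name Subread, featureCounts, edgeR and the dm6 build. What the authors deposited is a table of whole-number read counts by gene. The sources used here give no versions, annotation or strand setting, which leaves overlapping genes and close paralogs uncertain. Of 17529 genes, 17425 were matched by identifier to the Ensembl annotation of the same assembly.

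The test was edgeR 4.0.16's quasi-likelihood test, under R 4.3.3 (filterByExpr by genotype, 10834 genes kept, TMM factors, robust glmQLFit with 1 coefficient per genotype, 12 residual degrees of freedom, 2-sided glmQLFTest, Benjamini-Hochberg adjustment). The biological coefficient of variation was 8.88%. CPM are TMM-scaled over the genes kept, and SEs are the fold change over the square root of F. For the principal components a prior count of 2 was added before log2 CPM. DESeq2 1.42.0, other filters, the replicate block and leaving out libraries were alternatives. The fit was checked on simulated data. A permutation test of 3 against 3 libraries cannot go below p = 0.1, so none was used.

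The comparison, the 38 gene lists and the tests were chosen with earlier results of these data known. Of the list members 105 were not tested because of low counts. A further 11 list symbols, among them Dl, zip, h, esg and Med, were not matched to a gene of the count data. Named genes were CtBP, scrib and kay; then, among called genes without overlap and with at least 10 CPM in either group, the 12 largest named changes each way and the 2 largest with other symbols; up to 4 members of each list by p, with other members named by value; and the 6 largest each way in the interaction and among changes shared with CtBP against control discs. Library totals ran from 22294940 to 35510575 counts.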

Additional observations from a re-analysis of the deposited data

Results flagged for a closer look

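These results are listed because the difference made by CtBP loss was not the same in scrib discs as in discs with wild-type scrib. Each value below is the log2 fold change of CtBP scrib against scrib discs minus that of CtBP against control discs, and each passed the interaction test of edgeR (adjusted p = 1.36e-10 to 0.0413). In all, 94 of the 149 named genes met this, 37 with a positive and 57 with a negative value. Among all genes tested the interaction was called positive for 5.43% and negative for 5.06%. Many named genes were picked by their fold change or p in CtBP scrib against scrib discs, and some by the interaction itself. The count and its split by sign thus follow in part from that choice. The call held under every alternative for 82 of them, and 12 lost it under at least 1: insc, chinmo, Mlc2, Diap1, wgn, Mmp1, E(spl)m4-BFM, Pfk, ro, gl, ey and E(spl)mgamma-HLH.

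Eye specification genes gave -1.64 for dan, -1.43 for toe, -1.40 for danr, -1.38 for eyg, -1.37 for dac, -1.30 for toy, -1.04 for Optix, -0.99 for eya, -0.91 for ey, -0.74 for so, -0.68 for tio and -0.52 for tsh. Of these, tsh rose in both backgrounds and tio in CtBP discs alone, so their negative values stand for a smaller rise in scrib discs. Proneural, photoreceptor and cone cell genes gave -1.75 for sens, -1.25 for boss, -1.20 for klu, -0.95 for gl, -0.82 for ato, -0.77 for ro, -0.74 for svp, -0.55 for lz, -0.54 for sc and 0.52 for nvy. EGFR pathway genes gave -1.14 for ru, -0.75 for pnt, -0.73 for vn and -0.56 for kek1, and genes of the Notch pathway and its targets gave -0.91 for Brd, -0.86 for E(spl)mgamma-HLH, -0.73 for Ser, -0.59 for Tom and -0.43 for E(spl)m4-BFM. Antennal and other patterning genes gave -1.27 for al, -0.64 for Lim1, -0.49 for mirr, -0.37 for dpp, 0.43 for ptc, 0.45 for brk, 0.61 for Awh and 0.68 for lab.

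JNK pathway genes and targets gave 0.31 for wgn, 0.60 for puc, 0.61 for Pvf1, 0.92 for Atf3 and 1.02 for Mmp1, and JAK/STAT genes gave 0.66 for chinmo, 0.81 for Socs36E and 1.15 for upd1. The upd1 value also holds a fall, from a low level, in CtBP against control discs. Without control replicate 1 that fall was not called (-0.40, adjusted p = 0.135). For Mmp1 the value also holds a negative fold change in CtBP against control discs, whose libraries overlapped. Hippo pathway genes and Yorkie targets gave -0.43 for CycE, -0.24 for Diap1, 0.42 for Tgi and 0.56 for kibra. Septate junction, integrin and matrix genes gave -0.78 for Mmp2, 0.29 for sinu, 0.29 for pck, 0.30 for Nrx-IV, 0.44 for mew, 0.46 for cora and 0.82 for if.

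The knirps family genes gave 0.37 for knrl, 0.64 for kni and 1.24 for eg. Other genes with large increases gave 0.78 for exp, 0.81 for Phk-3, 1.69 for Cpr12A, 1.77 for l(2)k05911, 1.87 for Idgf6, 1.88 for GstT3, 1.92 for thw, 1.95 for Gld and 2.09 for IP3K2. Other genes with large decreases gave -2.18 for betaTub97EF, -2.07 for Dscam3, -1.82 for js, -1.63 for cysu, -1.59 for CR33938, -1.47 for Dscam2, -1.42 for ltl, -1.34 for Spn43Aa, -1.30 for qua, -1.17 for ana, -0.91 for St2 and -0.88 for GstZ2. Neuronal, neuroblast, glial, muscle, sex and temporal genes gave -1.55 for mira, -1.21 for Snap25, -0.83 for repo, -0.57 for msl-2, -0.39 for dpn, 0.40 for Imp, 0.49 for insc, 0.74 for Mlc2 and 1.62 for Cadps, and glycolytic genes gave -0.52 for Ald1, -0.40 for Hex-A and -0.30 for Pfk. The negative value of dpn stands for a smaller rise in scrib discs than with wild-type scrib.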

How the results depend on the processing

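Counts of genes called stayed within 1.5 times under every alternative run. In CtBP scrib against scrib discs 2027 genes were called, 2015 with DESeq2 size factors, 2041 with the DESeq2 Wald test, 1845 without a filter on low counts, 1828 with a filter of 5 CPM in 3 libraries, 1892 with only the compared groups fitted, 1875 without replicate 1 of every genotype and 1627 to 1846 with 1 library left out. Under these alternatives the counts ranged from 1176 to 1564 in CtBP against control discs and from 939 to 1191 in the interaction. The replicate block changed the 3 counts to 2049, 1564 and 1133. For same-numbered libraries of CtBP scrib and scrib discs the deviations from the genotype mean had correlations of -0.0332 to 0.115. These were below 0.1 in 2 of the 3 pairs, so the numbers were not taken to pair the samples. Of the named genes 17 lost their call in scrib discs under at least 1 alternative and roX1 and upd2 gained one; no called value changed sign. Small folds rest on 3 libraries per genotype, and the calls of scrib, upd3, Diap1, EcR, elav, Mmp1, ImpE2, upd1, moody, Gs2, wrapper, msl-2, dsx and dpn were lost without some single libraries. In simulated data for this comparison, with 10386 genes, 86.6% of 1.5-fold, 91% of 2-fold and 97% of 4-fold changes were recovered. Of its 189 calls 6 were false. Only 67, 67 and 66 genes were changed at these folds, and replicate 1 was drawn like the others. The rates thus need not hold for the real libraries.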

Other observations

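Ecdysone-response genes moved in both directions. The receptor gene EcR had 200.1, 172 and 169 CPM in CtBP scrib discs, against 152, 149.7 and 143 CPM in scrib discs (log2 fold change 0.28 ± 0.09, adjusted p = 0.0325), higher in every CtBP scrib library, but not called without CtBP scrib replicate 1 or without any one scrib replicate (adjusted p = 0.0744 to 0.158). The ecdysone-inducible genes ImpE1 and ImpE2 fell by 1.04 and 0.74 on the log2 scale (adjusted p = 0.00503 and 0.028). The ImpE2 call was lost without CtBP scrib replicate 1 or 2 or scrib replicate 1 or 2 (adjusted p = 0.0629 to 0.108). ImpE1 had 148, 177 and 176 CPM in CtBP scrib discs, against 436, 305 and 289.6 CPM in scrib discs, and 687 ± 185 CPM in CtBP discs and 709 ± 161 CPM in control discs. In the list of 19 ecdysone and temporal identity genes 4 were higher and 4 lower, beside 9.57% higher and 9.14% lower among all genes tested. The higher count was 2 without CtBP scrib replicate 1, scrib replicate 2 or scrib replicate 3.

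Of 12 Polycomb group genes 1 (8.33%, below the 18.7% of all genes) was called between CtBP scrib and scrib discs, Psc (Posterior sex combs), with 73.5, 70.7 and 66.5 CPM in CtBP scrib discs, against 102, 85.4 and 83.0 CPM in scrib discs (log2 fold change -0.36 ± 0.06, adjusted p = 0.000358). It was also lower in CtBP than in control discs (log2 fold change -0.29 ± 0.06, adjusted p = 0.0027).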
